A study of Mus musculus with 284 samples.

Results

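Hemidesmosomes are the junctions that bolt basal keratinocytes to the basement membrane, and laminin-332 is the ligand they grip there. The 8 genes followed here encode the parts of that anchor, namely Col17a1, Itga6, Itgb4, Lama3, Lamb3, Plec, Dst and Cd151. They were taken by symbol from the 54247 gene IDs of the count table, and each of the 8 symbols matched 1 ID. The cells are 284 tumour propagating cells, sorted singly from skin tumours of C57BL/6 mice. The mice labelled Sirt6-/- are KO1 (73 cells) and KO3 (54 cells), and the mice labelled wild type are WT1 (69 cells) and WT2 (88 cells). SIRT6 is a chromatin-bound deacetylase. All 4 mice also carried Keratin14-Cre, which is active in keratinocytes, and ROSA26-LSL-eYFP, the reporter it switches on. In all of them DMBA, a carcinogen, was applied once at 8 weeks of age, and TPA, a tumour promoter, over more than 20 weeks afterwards. YFP-positive living cells with surface CD34 and CD49f were collected. CD49f is the protein of Itga6, so the sort bears directly on the level of 1 of the 8 genes. It may also bear on genes that vary together with Itga6 or Cd34, which was not tested.

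In the epidermis the integrin of alpha 6 and beta 4 chains spans the basal membrane of the cell and binds laminin-332 outside it. Inside, plectin and the epithelial product of Dst tie the integrin to keratin filaments, while the transmembrane collagen XVII links both sides and the tetraspanin CD151 sits with the integrin in the membrane. A keratinocyte that leaves the basal layer gives up these junctions as it starts to differentiate, and in skin tumours the cells along the basement membrane carry them.

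RefSeq start windows on the mouse build GRCm38.p6 were used for 4 of the 8 genes. A window was kept only with at least 100 bases outside exons. Genes with no window used here may still have one in RefSeq. Shown here are the stretches before a start of Col17a1 and Lamb3, whose levels went together from cell to cell in every mouse, and of Cd151, whose level followed them least. Each is written 5′ to 3′ on the strand of its gene and stops before the first base inside an annotated exon of that gene. Capitals mark letters of a searched motif.
Col17a1: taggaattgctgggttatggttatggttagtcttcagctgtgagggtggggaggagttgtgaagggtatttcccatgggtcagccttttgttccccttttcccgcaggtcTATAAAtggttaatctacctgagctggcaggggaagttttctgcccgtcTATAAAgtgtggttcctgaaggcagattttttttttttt
Lamb3: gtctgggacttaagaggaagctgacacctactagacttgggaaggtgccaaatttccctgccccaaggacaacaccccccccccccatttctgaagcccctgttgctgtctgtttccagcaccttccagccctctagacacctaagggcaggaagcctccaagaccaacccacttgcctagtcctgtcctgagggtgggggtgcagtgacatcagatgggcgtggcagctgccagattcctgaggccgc
Cd151: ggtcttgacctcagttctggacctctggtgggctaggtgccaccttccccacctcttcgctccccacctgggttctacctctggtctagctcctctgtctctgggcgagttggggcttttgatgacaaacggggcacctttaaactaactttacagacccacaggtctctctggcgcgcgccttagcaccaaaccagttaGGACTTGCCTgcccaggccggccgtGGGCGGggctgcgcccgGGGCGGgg
The Col17a1 stretch is chr19:47692095-47692292 on the minus strand, the Lamb3 stretch chr1:193301744-193301992 on the plus strand and the Cd151 stretch chr7:141467112-141467361 on the plus strand. In the 250 bases before each start, 4 motifs were searched on both strands. Col17a1 held TATAAA at 2 places, which 12.4% of the 32851 windows of that length held at least once. Cd151 held the GC box GGGCGG at 2 places (32.7% of windows) and 1 p53 family half-site (7.13% of windows). Dst, with 2 windows, held GGGCGG at 4 places in one of them. The Lamb3 window held none of the 4, and the AP-1 motif TGANTCA, found in 6.75% of windows, was in none of the 3 windows shown. These matches describe letters in a window and say nothing of binding.

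All 8 genes were expressed, and the cells carried the keratinocyte identity of the sort. Krt14, a keratin of basal cells, lay at 20398 and 26485 CPM in KO1 and KO3, against 22935 and 31524 CPM in WT1 and WT2, and had a count in every one of the 284 cells. Levels in CPM are the summed counts of a mouse over its library total, after edgeR's TMM scaling. Total counts per cell lay between 523999 and 1684464, with a median of 1130412, and no unique molecular identifiers were used. Intervals on shares of cells cover only the sampling of cells within a mouse, not the spread between mice. Sirt6 itself lay at 26.3 CPM in KO1 and 14.5 CPM in KO3, against 16.4 CPM in WT1 and 26.4 CPM in WT2. The transcript level thus did not separate KO1 and KO3 from the wild type. Counts over a whole gene do not test whether a piece of it is missing, and these 2 are named throughout as the mice labelled Sirt6-/-. Cells of the genotypes were never on the same plate, and the effects of genotype and plate cannot be told apart. Of the markers of other cell types, the summed level of 9 immune genes lay at 13.3 and 17.5 CPM in the mice labelled Sirt6-/- and at 25.5 and 32.6 CPM in the wild type. That of 6 endothelial genes lay between 6.16 and 8.82 CPM over the mice, that of 6 melanocyte genes between 0.114 and 5.38 CPM, and of 9 fibroblast genes Col1a2, Dcn, Lum and Pdgfrb were at 0. The fibroblast sum, 202 and 208 CPM in KO1 and KO3 against 207 and 130 CPM in WT1 and WT2, was nearly all Fbln1, at 201 and 206 CPM against 206 and 129 CPM.

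Per kilobase of merged exons, Col17a1 was the most abundant of the 8, at 284 ± 171 CPM per kb over the 4 mice (SD, n = 4). Itgb4 followed at 117 ± 47.2 CPM per kb, then Cd151 at 51.5 ± 8.73, Lamb3 at 45.8 ± 15.6, Plec at 30.1 ± 11.4, Itga6 at 22.1 ± 6.09, Lama3 at 13.0 ± 3.61 and Dst at 4.51 ± 2.90 CPM per kb. The means of Cd151 and Lamb3, of Plec and Itga6 and of Col17a1 and Itgb4 differed by less than the larger SD of the pair, but within each mouse Col17a1 lay at 1.90 to 2.92 times the level of Itgb4. The partner chains did not have equal transcript levels per length. The level of Itga6 was 0.168 and 0.261 times that of Itgb4 in KO1 and KO3, against 0.231 and 0.141 times in WT1 and WT2. The level of Lama3 was 0.256 and 0.393 times that of Lamb3 in KO1 and KO3, against 0.304 and 0.220 times in WT1 and WT2. Plec and Dst are very long genes with several starts, and merged exons of all transcripts, 18113 and 41155 bases, may understate their level per length.

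Col17a1 encodes collagen XVII, the transmembrane collagen that reaches from the hemidesmosome into the basement membrane (ENSMUSG00000025064.15, GRCm38 chromosome 19, 47646344 to 47692094, minus strand). It lay at 1180 CPM in KO1 and 858 CPM in KO3, against 1614 CPM in WT1 and 3176 CPM in WT2. Both mice labelled Sirt6-/- lay below both wild-type mice, and WT2 stood 1.97 times above WT1, more than the 1.37 times that parted WT1 from KO1. The log2 difference was -1.23 (SE 0.401; edgeR adjusted p = 0.901), so it did not pass. A count was found in 97.3% of the cells of KO1 (exact 95% interval 90.5 to 99.7) and 87.0% of KO3 (75.1 to 94.6), against 92.8% of WT1 (83.9 to 97.6) and 94.3% of WT2 (87.2 to 98.1). The groups therefore parted mainly in the level per cell, with a median cell at 1133 CPM in KO1 and 449 CPM in KO3, against 1473 CPM in WT1 and 2994 CPM in WT2.

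The laminin-binding integrin was measured through both of its chains. Itgb4, whose long cytoplasmic tail binds plectin (ENSMUSG00000020758.15, chromosome 11, 115974709 to 116008412, plus strand), lay at 623 CPM in KO1 and 526 CPM in KO3, against 866 CPM in WT1 and 1269 CPM in WT2. Itga6, the alpha chain and the sorted CD49f (ENSMUSG00000027111.15, chromosome 2, 71745616 to 71858416, plus strand), lay at 134 and 177 CPM in KO1 and KO3, against 258 and 230 CPM in WT1 and WT2. The genotypes did not overlap for either chain. The log2 difference was -0.89 (SE 0.266; edgeR adjusted p = 0.862) for Itgb4 and -0.65 (SE 0.229; edgeR adjusted p = 0.957) for Itga6. Itga6 had a count in 87.7% and 90.7% of the cells of KO1 and KO3 and in 95.7% and 93.2% of those of WT1 and WT2, so some cells sorted for the protein showed no transcript at this depth.

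The 2 laminin chains were both patchy from cell to cell. Lamb3, the beta chain of laminin-332 (ENSMUSG00000026639.18, chromosome 1, 193207699 to 193343878, plus strand), lay at 198 and 244 CPM in KO1 and KO3, against 339 and 431 CPM in WT1 and WT2, with no overlap (log2 difference -0.80, SE 0.234; edgeR adjusted p = 0.862). Lama3, the alpha chain (ENSMUSG00000024421.16, chromosome 18, 12333819 to 12583013, plus strand), lay at 82.3 and 156 CPM in KO1 and KO3, against 167 and 154 CPM in WT1 and WT2, where KO3 overlaps the wild type (log2 difference -0.43, SE 0.359; edgeR adjusted p = 0.976). A difference between the chains was not tested, and that of Lama3 moved with single mice. Without KO1 it was -0.03, and without KO3 -0.96, beside -0.96 for Lamb3 without KO3. Lama3 had a count in 53.4% of the cells of KO1 (95% interval 41.4 to 65.2) and 55.6% of KO3 (41.4 to 69.1), against 73.9% of WT1 (61.9 to 83.7) and 78.4% of WT2 (68.4 to 86.5). Thinning each cell to 500000 counts left these shares at 52.1% and 55.6% in KO1 and KO3, against 72.5% and 78.4% in WT1 and WT2. In KO3 the top 10% of the cells held 70.3% of all Lama3 counts, against 50.0% in KO1, 47.8% in WT1 and 37.4% in WT2. The level of Lama3 in KO3 thus rested on few cells. Lamb3 was found in 68.5% and 61.1% of the cells of KO1 and KO3, against 84.1% and 81.8% of WT1 and WT2.

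The cytoplasmic linkers also lay lower in the mice labelled Sirt6-/-. Plec, the plakin that joins the integrin to keratin filaments (ENSMUSG00000022565.15, chromosome 15, 76170974 to 76232574, minus strand), lay at 495 and 323 CPM in KO1 and KO3, against 540 and 819 CPM in WT1 and WT2. Dst, whose epithelial product is the plakin BP230 (ENSMUSG00000026131.19, chromosome 1, 33908225 to 34308661, plus strand), lay at 147 and 73.8 CPM in KO1 and KO3, against 168 and 354 CPM in WT1 and WT2. The gap between the nearest mice of the genotypes was 1.09 times for Plec and 1.14 times for Dst, while mice of the same genotype differed by up to 1.53 times for Plec and 2.11 times for Dst. The log2 difference was -0.73 (SE 0.336; edgeR adjusted p = 0.965) for Plec and -1.24 (SE 0.525; edgeR adjusted p = 0.965) for Dst. The counts are per gene, so the epithelial, neuronal and muscle products of Dst were not told apart. Cd151, the tetraspanin partner of the integrin (ENSMUSG00000025510.14, chromosome 7, 141467392 to 141471473, plus strand), was the gene least apart. It lay at 147 and 119 CPM in KO1 and KO3, against 127 and 172 CPM in WT1 and WT2, with overlapping genotypes (log2 difference -0.17, SE 0.256; edgeR adjusted p = 0.999).

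**Figure D1:**
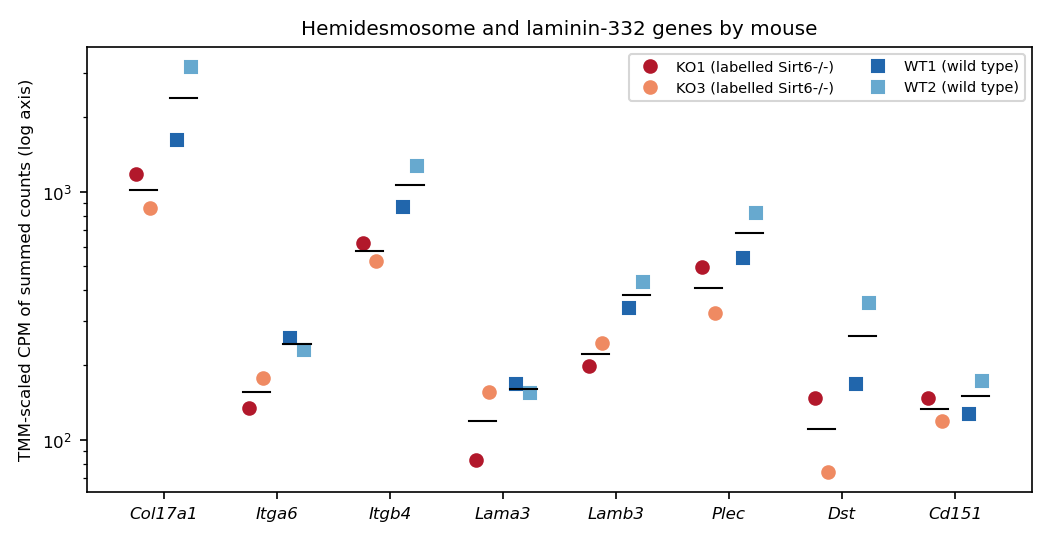
Level of each of the 8 genes in each mouse, as TMM-scaled CPM of the summed counts on a log axis; circles are the mice labelled Sirt6-/-, squares the wild-type mice, and bars the mean of the 2 mice. Col17a1, Itga6, Itgb4, Lamb3, Plec and Dst have both circles below both squares, while Lama3 and Cd151 overlap.

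Across the set, edgeR's quasi-likelihood test over 16567 genes called 0 of the 8 and 0 genes in all (0% called). At an unadjusted p under 0.05 it had 4 of the 8, Col17a1, Itga6, Itgb4 and Lamb3, each lower in the mice labelled Sirt6-/-, where 3.49% of all genes had such a p and lay lower, and 5.12% in either direction. DESeq2 called 148 genes (0.893%), 0.682% of all genes as lower, and 0 of the 8, and limma-voom called 0. All 8 differences were negative, as were 50.7% of those of all genes, with a median of -0.77 beside -0.01 over all genes. In 6 of the 8 both mice labelled Sirt6-/- lay below both wild-type mice, against 18.7% of all genes, and in 0 of the 8 above them, against 17% of all genes. The size rested partly on WT2, since the median became -0.60 without it, and the log2 difference of Col17a1 became -0.66 and that of Dst -0.60. The common biological coefficient of variation between mice was 0.723. WT2 also stood apart in immediate early genes and genes of dissociation stress, known to react when tissue is handled. Their summed level of 21 genes was 13534 and 12784 CPM in KO1 and KO3, against 13882 and 31198 CPM in WT1 and WT2, and its part in the levels of the 8 genes was not tested. Within the mice that lay on 2 plates, Col17a1 had 1274 unscaled CPM in the 8 cells of KO1 on plate 2, against 1200 in its 65 cells on plate 1, and 2900 in the 7 cells of WT2 on plate 3, against 3048 in its 81 cells on plate 4. Other genes differed more between the plates of KO1, with Dst at 265 CPM on plate 2 against 136 on plate 1, Lama3 at 30.1 against 91.3, and Itgb4 at 467 against 660. In WT2, Dst had 245 CPM on plate 3 against 347 on plate 4, and Itgb4 1313 against 1204. Some of these gaps, each resting on 7 or 8 cells on the smaller side, were as large as the differences between the genotypes.

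Cell by cell, the lower levels showed in the distributions of most of the 8 genes, and for Lama3 and Lamb3 also in more cells without a count. The median of all 284 cells for Col17a1 was exceeded by 34.2% of the cells of KO1 and 24.1% of KO3, against 50.7% of WT1 and 78.4% of WT2. For Itgb4 these shares were 38.4% and 24.1% in KO1 and KO3, against 55.1% and 71.6% in WT1 and WT2, and for Itga6 31.5% and 37.0%, against 66.7% and 60.2%. For Cd151 they were 46.6% and 44.4%, against 46.4% and 59.1%. For Dst they were 43.8% and 27.8%, against 44.9% and 72.7%, so KO1 and WT1 were close. The median cell for Dst lay at 109 CPM in KO1, above the 95.1 CPM of WT1. Counts for all 8 genes were found in 34.2% of the cells of KO1 and 33.3% of KO3, against 56.5% of WT1 and 60.2% of WT2. After thinning to 500000 counts these shares were 32.9% and 33.3% in KO1 and KO3, against 55.1% and 60.2% in WT1 and WT2.

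**Figure D2:**
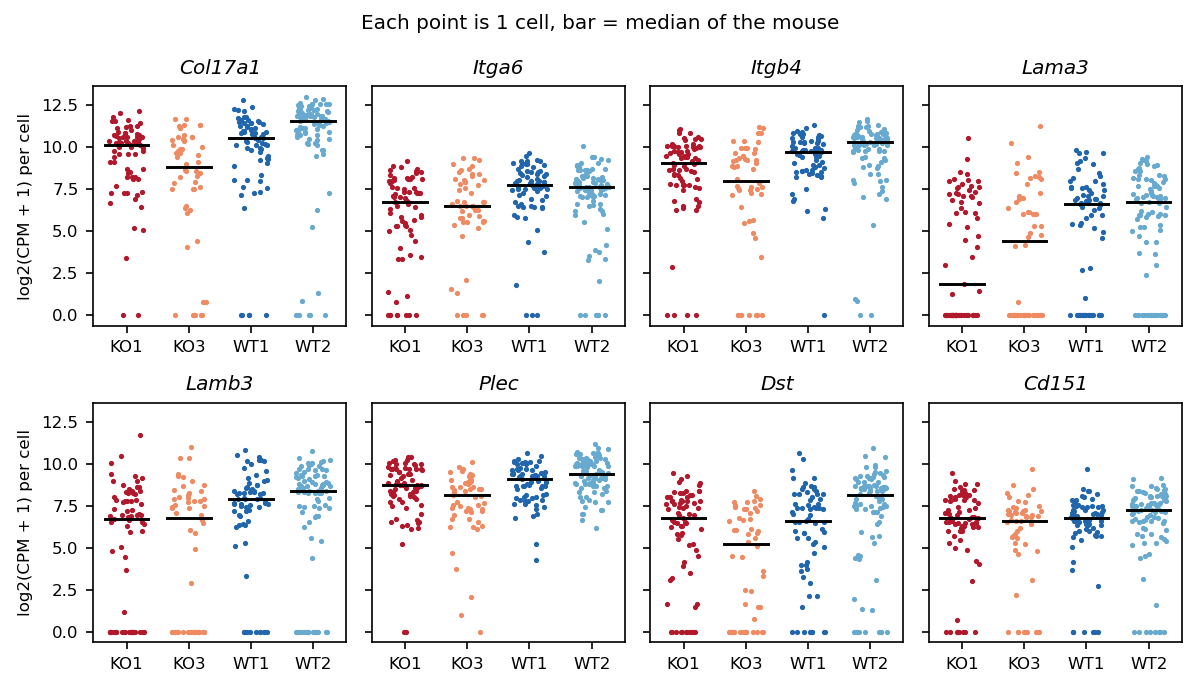
Each panel shows 1 gene, with each point a single cell as log2(CPM + 1) and a bar at the median cell of each mouse. Cells at 0 are frequent for Lama3 and Lamb3 and rare for Plec, and the median for Lama3 lies lowest in KO1.

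A small set of cells lacked most of the anchor. In 15 of the 284 cells, 4 of KO1 and 6 of KO3 against 2 of WT1 and 3 of WT2, at most 3 of the 8 genes had a count. Their median depth of 1145950 counts and 6242 detected genes was close to the 1122520 counts and 6361 genes of the 135 cells with all 8. Suprabasal genes summed to a median of 19109 CPM in these 15 cells (quartiles 15014 and 23643), against 2158 CPM in the cells with all 8 (quartiles 1437 and 3484). Krt5, a keratin of basal cells, had a median of 1041 CPM in the 15 cells, against 7415 CPM in the cells with all 8, while Krt14 lay at 19286 against 26569 CPM. A count for the proliferation gene Mki67 was found in 7 of the 15 cells and in 76 of the 135. The cells that lacked most of the anchor were thus deeply sequenced cells with a suprabasal profile.

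Within each mouse the 8 genes varied together from cell to cell. For this, log2(CPM + 1) per cell was first corrected for its straight-line dependence on log10 depth and on the number of genes detected, and Pearson correlations were taken across the cells of 1 mouse. The cells of a mouse shared 1 plate in KO3 and WT1, while 8 cells of KO1 and 7 of WT2 lay on another plate than the rest. The correlations are descriptions of n = 73, 54, 69 and 88 cells in KO1, KO3, WT1 and WT2. The mean over the 28 pairs was 0.385 in KO1 and 0.436 in KO3, against 0.400 in WT1 and 0.420 in WT2. The detection limit, a count in 20% of the cells or more in each mouse, was passed by 8420 genes, all 8 included, and the median over all their pairs lay between 0.000816 and 0.00316. Of the 28 pairs, 27 were positive in all 4 mice, against 7.82% of all gene pairs, and 20 reached 0.2 in all 4, against 0.107%.

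The closest pair was Col17a1 with Itgb4, at 0.674 and 0.829 in KO1 and KO3, against 0.793 and 0.757 in WT1 and WT2. Col17a1 is the transmembrane collagen and Itgb4 the integrin chain it meets in the hemidesmosome. Col17a1 with Lamb3 came next, at 0.589 and 0.618 in KO1 and KO3, against 0.757 and 0.630 in WT1 and WT2. The chains that assemble with each other were not the closest pairs. Itga6 with Itgb4 lay at 0.311 and 0.595 in KO1 and KO3, against 0.603 and 0.471 in WT1 and WT2, and Lama3 with Lamb3 at 0.378 and 0.633, against 0.398 and 0.326. Cd151 stood aside, with a mean over the mice between 0.0783 with Plec and 0.250 with Itgb4, and its 1 negative value was -0.12 with Dst in WT1. The correlation of each gene with the score of the other 7, the mean of their z values, was on average 0.814 for Col17a1, 0.770 for Itgb4, 0.683 for Lamb3, 0.590 for Dst, 0.582 for Itga6, 0.552 for Plec, 0.512 for Lama3 and 0.214 for Cd151.

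**Figure D3:**
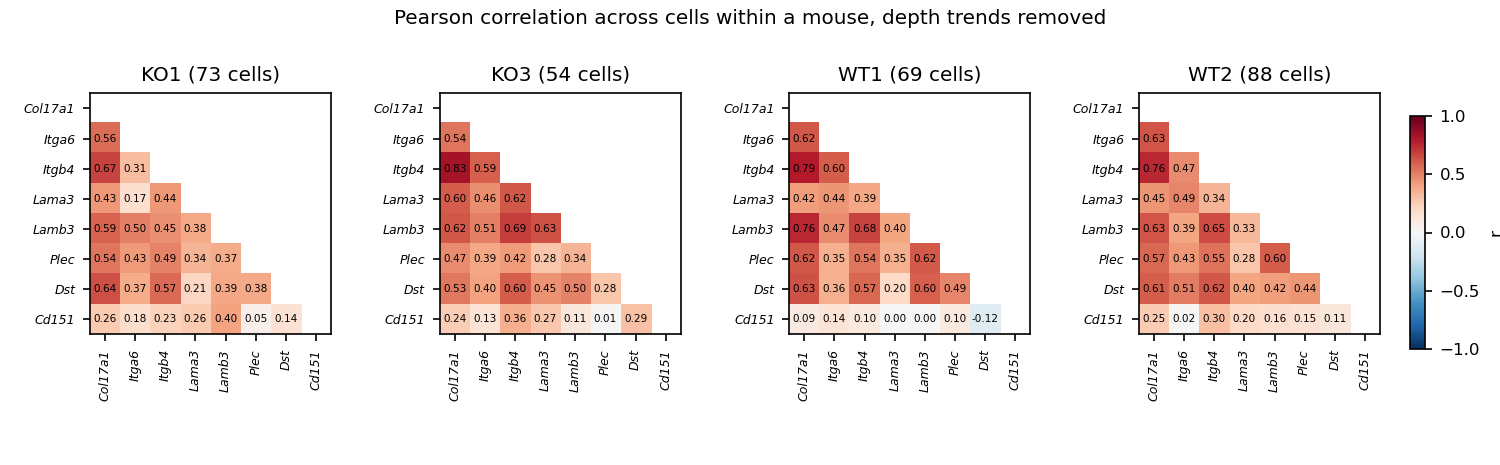
Pearson correlation across the cells of each mouse for the 28 pairs of the 8 genes, as colour and number, after removal of depth trends. The Col17a1 row and column hold the strongest values in each mouse, up to 0.829 in KO3, and the Cd151 row the weakest.

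Suprabasal genes ran opposite to the anchor in every mouse. These are genes switched on when a keratinocyte leaves the basal layer, and 13 of the 23 listed passed the detection limit and made up the suprabasal score. The score of the 8 genes correlated with it at -0.66 in KO1 and -0.77 in KO3, against -0.73 in WT1 and -0.83 in WT2. All 8 genes had a negative correlation in all 4 mice, against 18.5% of the genes outside the suprabasal list. Col17a1 was the most opposed, at -0.68 and -0.72 in KO1 and KO3, against -0.73 and -0.77 in WT1 and WT2. Cd151 was the least, at -0.16 and -0.38 in KO1 and KO3, against -0.11 and -0.25 in WT1 and WT2. All 13 suprabasal genes in turn had a correlation of at most -0.2 with the anchor score in all 4 mice, which 1.13% of the non-members had.

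The same relation was visible in levels, here in unscaled CPM. Cells of each mouse were ranked by suprabasal score, and the 24, 18, 23 and 29 cells at either end were summed in KO1, KO3, WT1 and WT2. In the cells with the highest score, Col17a1 had 516 CPM in KO1 and 232 in KO3, against 548 in WT1 and 1765 in WT2. In those with the lowest score it had 1531 CPM in KO1 and 1577 in KO3, against 1949 in WT1 and 3603 in WT2. WT2 lay above the other mice at both ends. Itgb4 had 236 and 83.0 CPM in KO1 and KO3 in the cells with the highest score, against 474 and 626 CPM in WT1 and WT2. In those with the lowest score it had 810 and 1027 CPM, against 1118 and 1555 CPM. The contrast was steep in KO3, where Dst had 9.49 CPM in the cells with the highest score and 120 CPM in those with the lowest, and Lama3 31.6 and 348 CPM. Median depth was similar at both ends, at 1259060 and 1311790 counts in KO3. In a fit on the cells at the lower end of the suprabasal score of their mouse (36, 27, 34 and 44 cells in KO1, KO3, WT1 and WT2), the median log2 difference between the genotypes was -0.57, against -0.77 in all cells, and that of Lama3 was 0.11.

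No common direction linked the 8 genes to the glycolysis score. The glycolysis score held 18 of the 22 listed enzymes and transporters. The anchor score correlated with it at 0.155 in KO1 and 0.380 in KO3, against -0.07 in WT1 and -0.27 in WT2. The genes in the glycolysis score did not share a sign. Slc2a1, Slc16a1, Slc16a3 and Pfkp correlated positively with the anchor score in all 4 mice, and Ldha negatively. Of the 8 genes, 0 had a positive correlation in all 4 mice, which 11.1% of other genes had, and 0 a negative one, which 5.86% had. With so few genes, 0 of 8 does not differ clearly from these shares. Col17a1, Itga6, Itgb4 and Plec, 4 of the 8, were positive in both mice labelled Sirt6-/- and negative in both wild-type mice, as were 6.15% of the genes outside the glycolysis list. Summed levels in WT1, in unscaled CPM, did not follow this split. Its 23 cells highest in glycolysis had 1889 CPM of Col17a1, against 1589 CPM in its 23 lowest. For Itgb4 these values were 953 and 866 CPM, for Itga6 295 and 276, and for Plec 631 and 507. For the anchor score, the sign in WT1 turned under 2 alternatives. It became 0.187 in cells with no Mki67 and Top2a count, and 0.0062 when scores were made from each gene's ranks across cells. Plec lay at 0.400 and 0.394 in KO1 and KO3, against -0.02 and -0.25 in WT1 and WT2. The laminin genes were positive in 3 of the 4 mice. Lama3 lay at 0.178 and 0.388 in KO1 and KO3, against 0.0894 and -0.11 in WT1 and WT2, and Lamb3 at 0.234 and 0.301, against 0.0592 and -0.11. In KO3, Lama3 had 300 CPM, unscaled, in the 18 cells highest in glycolysis and 44.7 CPM in the 18 lowest. The 24 highest and 24 lowest cells of KO1 had 126 and 50.6 CPM. In WT1 the 23 highest and 23 lowest had 279 and 85.4 CPM, while the 29 highest and 29 lowest cells of WT2 had 158 and 171 CPM.

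**Figure D4:**
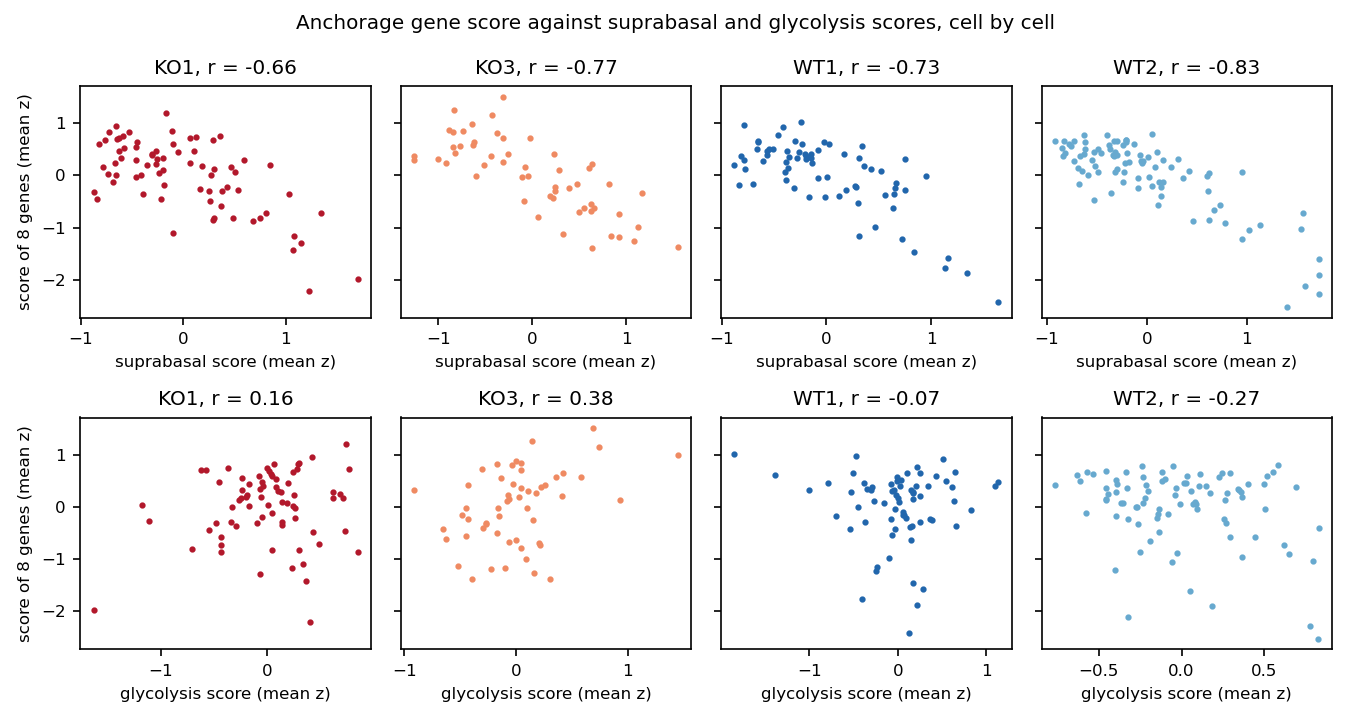
Each point is 1 cell, with the mean z value of the 8 anchor genes on the vertical axis and that of the suprabasal genes (upper row) or the glycolysis genes (lower row) on the horizontal axis, 1 panel per mouse. The upper panels slope down in all 4 mice, and the lower panels have r = 0.16 in KO1, 0.38 in KO3, -0.07 in WT1 and -0.27 in WT2.

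**Figure D5:**
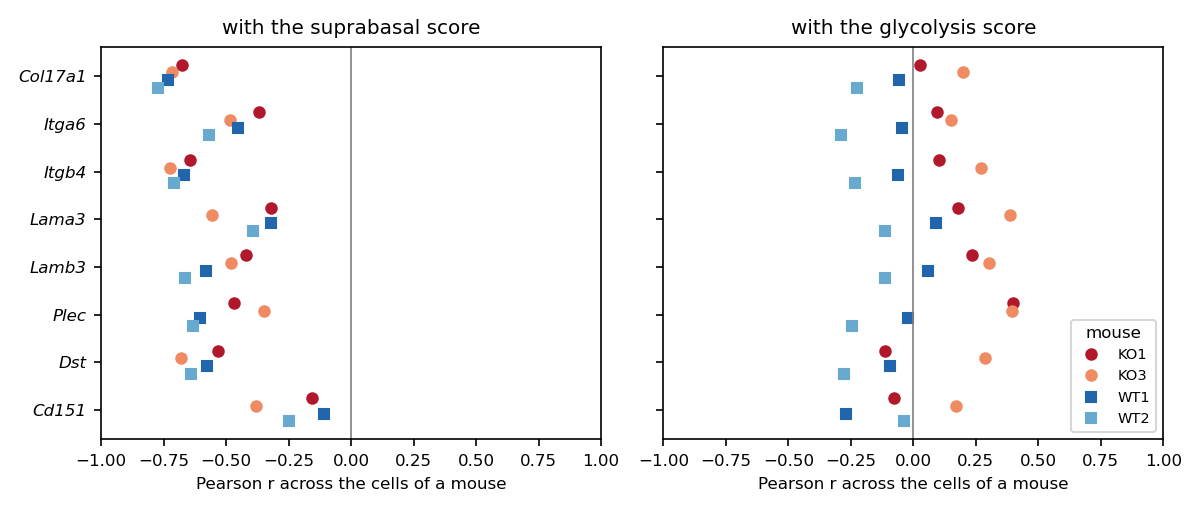
Correlation of each of the 8 genes with the suprabasal score (left) and the glycolysis score (right) in each mouse, circles for the mice labelled Sirt6-/- and squares for the wild type. All points on the left lie below 0, and on the right Plec lies near 0.40 in both mice labelled Sirt6-/- and at or below -0.02 in the wild type.

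Genes with the pattern most like the anchor were ranked by their lowest correlation with its score over the 4 mice, among 8412 non-members. The first was Htra1, a secreted serine protease, at 0.644 and 0.679 in KO1 and KO3, against 0.739 and 0.686 in WT1 and WT2. Itgb1, the beta 1 integrin chain, followed at 0.636 and 0.70, against 0.729 and 0.643. Then came Cavin1, a coat protein of caveolae, with a lowest value of 0.624, and Itga3, whose integrin with beta 1 also binds laminin-332, with 0.588. Others among the first 10 were Serpinh1, a chaperone of collagens (0.525), Col18a1, a collagen of basement membranes (0.521), the taurine transporter gene Slc6a6 (0.518), the basement membrane proteoglycan gene Agrn (0.515) and the secreted protein gene Dkk3 (0.475). A correlation of at least 0.2 in all 4 mice was found for 180 non-members (2.14%).

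The most opposed genes were ranked by their highest correlation over the 4 mice. They included Nectin4, a cell adhesion gene (-0.58), the suprabasal list members Calm4 (-0.53), Ly6d (-0.51), Grhl3 (-0.49) and Krt1 (-0.48), the fatty acid binding protein gene Fabp5 (-0.52), and Zfp750 (-0.50), which encodes a factor of epidermal differentiation. Crybg2 (-0.48) completed the 10 with 2 processed pseudogenes, Gm14328 (-0.61) and Gm6166 (-0.59), whose estimated counts are uncertain because reads can be shared with a parent gene. Krt1 lay at -0.48 and -0.68 in KO1 and KO3, against -0.61 and -0.85 in WT1 and WT2.

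By list, the partners of the basement membrane followed the anchor most. Of 24 listed laminin, collagen, proteoglycan and integrin partners 14 passed the detection limit, and 10 of these reached 0.2 in all 4 mice, among them Lama5, Lamb1, Col7a1, Hspg2, Agrn, Itga3, Itgb1, Dag1 and Fermt1. Of the basal keratinocyte genes 4 of 12 did so, Krt5, Krt15, Sparc and Cd34, whose protein was used in the sort. Trp63, Ccnd2, Cdh3 and Sox9 were positive in all 4 mice but did not reach 0.2 in each. Trp63 lay at 0.586 and 0.471 in KO1 and KO3, against 0.344 and 0.172 in WT1 and WT2. Others of the basal list were not positive in all 4 mice. Trim29 lay at 0.00259 and -0.39 in KO1 and KO3, against -0.39 and -0.22 in WT1 and WT2. Krt14 lay at -0.13 and 0.0921, against -0.02 and 0.582, and Bcl11b was negative in all mice but WT1. Of 8 genes of shedding and proteolysis 0 reached 0.2 in all 4 mice, and likewise 0 of 18 glycolysis genes, 0 of 19 stress genes and 0 of 11 genes of the G2/M phase. Of all non-members 2.14% reached it, so 0 in a list of this size does not set the list apart from other genes. The anchor score correlated with the G2/M score at -0.01 and -0.05 in KO1 and KO3, against 0.00204 and 0.138 in WT1 and WT2. With the basal score it had 0.589 and 0.490 in KO1 and KO3, against 0.622 and 0.672 in WT1 and WT2. With the shedding score it had 0.496 and 0.460, against 0.305 and 0.271. With the stress score it had 0.219 and -0.04 in KO1 and KO3, against 0.179 and 0.126 in WT1 and WT2.

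Between the genotypes, the partner genes leaned the same way as the anchor but were not called by edgeR (0 of 18 tested). Of these 18, 14 had a negative and 4 a positive difference, with a median of -0.51. Over all genes 50.7% were negative, with a median of -0.01, and edgeR called 0. Col7a1, which encodes the collagen of the anchoring fibrils beneath the hemidesmosome, lay at 61.4 and 36.3 CPM in KO1 and KO3, against 113 and 162 CPM in WT1 and WT2 (log2 difference -1.50, SE 0.366; edgeR adjusted p = 0.809). It was the 1 partner that DESeq2 called (adjusted p = 0.0193). Itgb1 lay at 374 and 310 CPM, against 641 and 499 CPM, a log2 difference of -0.74, and Lama5, the alpha chain of another epidermal laminin, at 108 and 48.6 CPM, against 120 and 135 CPM. Npnt, a matrix ligand of integrins, lay at 4.76 and 0.80 CPM, against 38.4 and 5.79 CPM.

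Among 16 tested genes of shedding and proteolytic processing 12 had a negative and 4 a positive difference, and edgeR called 0 of them. Adam9, one of the proteases known to shed collagen XVII, lay at 32.4 and 26.3 CPM in KO1 and KO3, against 42.9 and 68.6 CPM in WT1 and WT2. Mmp14, a membrane metalloprotease that cuts laminin chains, lay at 37.7 and 29.4 CPM, against 51.2 and 86.6 CPM. Plau, the urokinase gene, lay at 47.2 and 43.0 CPM, against 65.5 and 92.8 CPM, and Adam17 at 42.2 and 77.3 CPM, against 84.9 and 80.3 CPM. Serpine2, an inhibitor of serine proteases, had a difference of the other sign (log2 difference 0.89, SE 1.10), at 260 and 43.6 CPM in KO1 and KO3, against 134 and 29.7 CPM in WT1 and WT2. Timp3, an inhibitor of metalloproteases, lay at 20.9 and 0.83 CPM, against 10.4 and 35.5 CPM. Of the 14 basal keratinocyte genes 13 had a negative difference and edgeR called 0. Krt5 lay at 4877 and 3838 CPM in KO1 and KO3, against 6008 and 8765 CPM in WT1 and WT2, and Krt15 at 876 and 439 CPM, against 1493 and 1216 CPM. Postn, a matrix protein gene, was at 0 in KO1 and KO3, against 207 and 16.9 CPM in WT1 and WT2, and was the 1 basal gene that DESeq2 called. Of 19 suprabasal genes 15 had a positive difference with 0 called, among them Sprr1b at 146 and 383 CPM, against 112 and 35.3 CPM, while Krt1 lay at 163 and 299 CPM, against 211 and 1081 CPM. Among 22 glycolysis genes the difference was positive in 10 and negative in 12, with 0 called. Slc16a3, a lactate exporter, lay at 130 and 178 CPM in KO1 and KO3, against 118 and 21.1 CPM in WT1 and WT2. Of 21 stress genes 18 had a negative difference, and of 20 G2/M genes 16 a positive one, with 0 called in either list. Beside these list counts, 50.7% of all genes had a negative difference, and DESeq2 called 0.893% of all genes. Because edgeR called 0 genes in all, 0 called says nothing particular of a list. Genes of a list were measured in the same 4 mice and are not independent, and no list was tested.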

How the data were processed

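The authors deposited expected counts for each gene in each cell, made with STAR and RSEM on mm10 (GRCm38) per the submitters' processing notes. For neither tool is a version or strand setting stated there. Among values above 0, 21.5% had a fractional part. Symbols and coordinates came from GENCODE M21 on GRCm38, with 54156 of 54247 IDs matched, 299 of them after leaving off the version of the ID (Dst among these), and the 91 others carried 0.000107% of the counts. Annotated genes overlapping a member, such as Parp10 at Plec with 1.57% of its counts, were counted apart from it.

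The mouse was the replicate. Counts were summed over the cells of a mouse, rounded, and tested with edgeR 4.0.16 in R 4.3.3 (TMM, filterByExpr, quasi-likelihood test, two-sided, Benjamini-Hochberg, threshold 0.05), with DESeq2 1.42.0 and limma 3.58.1 as alternatives. Correlations within mice carry no test. Scripts were tested on simulated data. No cell was left out and no doublet caller was run on single sorted wells. Shares of cells carry exact Clopper-Pearson intervals.

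The 8 genes, the lists and the motifs were chosen with earlier results of these data known. Named genes were the 8, Sirt6, the 10 non-members at each end of the likeness ranking (1 of them is not reported here), and of each list up to 6 with the largest difference at a mean of at least 10 CPM. Krt14, markers at 0 and genes spelled out beside a count of a list fall outside this rule and were named after their values were seen.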

Additional observations from a re-analysis of the deposited data

Results flagged for a closer look

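In 4 of the 8 genes the correlation with the glycolysis score had opposite signs in the genotypes, a difference that was not tested. Such a split was found in 6.15% of the genes outside the glycolysis list. Plec lay at 0.400 and 0.394 in KO1 and KO3, against -0.0198 and -0.2457 in WT1 and WT2. Itgb4 lay at 0.1026 and 0.2723 in KO1 and KO3, against -0.0626 and -0.2351 in WT1 and WT2. Itga6 lay at 0.0932 and 0.1499 in KO1 and KO3, against -0.0461 and -0.2912 in WT1 and WT2. Col17a1 lay at 0.0266 and 0.199 in KO1 and KO3, against -0.0556 and -0.226 in WT1 and WT2. The split of the score of the 8 genes ended under 2 alternatives, where WT1 turned positive. It lay at 0.187 in cells without Mki67 and Top2a counts and at 0.0062 with scores made from each gene's ranks across cells. Several of the values of single genes are close to 0, and genotype and plate cannot be told apart. Summed levels in WT1 did not follow the split. All 4 genes were higher in its 23 cells highest in glycolysis than in its 23 lowest, from 295 against 276 unscaled CPM for Itga6 to 631 against 507 for Plec. No gene had opposite signs with the suprabasal score (0 of 8).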

How the results depend on the processing

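The count of the 8 genes called between the genotypes was 0 under every one of the 15 alternatives run, while the count over all genes was 148 with DESeq2 and 1 with a minimum mean of 10 CPM. The median log2 difference of the 8 genes, -0.77, was -1.53 as the mean of log2(CPM + 1) over cells and lay between -0.97 and -0.60 with each mouse left out. Col17a1, Itga6, Itgb4, Lamb3, Plec and Dst kept a negative difference in all 15. Lama3 turned to 0.11 in the cells below the median suprabasal score and to 0.31 in the cells without Mki67 and Top2a counts (25, 7, 16 and 35 cells in KO1, KO3, WT1 and WT2), and Cd151 lay between -0.3674 and 0.0682 with a mouse left out, positive without WT2. The mean pairwise correlation, 0.410, was 0.433 with log2(CPM + 10) and 0.402 to 0.419 with a mouse left out. The correlation with the suprabasal score, -0.75 on average, was -0.64 when genes had to be found in 50% of the cells, and -0.78 to -0.72 with a mouse left out. That with glycolysis, 0.0472 on average, was -0.0057 at 50% detection and -0.0636 to 0.1543 with a mouse left out, negative without KO3. It moved most in the cells without Mki67 and Top2a counts, to 0.3092, with 0.395 and 0.666 in KO1 and KO3, against 0.187 and -0.0119 in WT1 and WT2. Single mice moved the log2 difference of Lama3 to -0.0277 without KO1 and -0.9631 without KO3, of Plec to -0.4577 without KO3 and -0.4006 without WT2, and of Itgb4 to -0.5913 without WT2. They moved that of Dst to -0.8292 without KO3 and -0.6026 without WT2. The cause was not tested in any of these. No paired analysis was run, because the labels name no pairs of mice across the genotypes. Thinning to 500000 counts per cell moved none of the 3 mean correlations beyond the spread between mice, while 2 mice per genotype limit each comparison between genotypes.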
